A study of Mus musculus with 2 samples.

Results

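The genes described here encode the hydrolases that take macromolecules apart inside the lysosome, the proteins of its limiting membrane, and the receptors and regulator that supply it. They were picked by function as 45 genes, of which 44 have at least 1 probe set, a group of short probes reading a transcript, that the array's annotation ties to exactly 1 symbol. The array has such a probe set for 18193 genes. *Cd63*, a membrane tetraspanin, was not analysed here. Each gene is represented by its brightest probe set, meaning the one with the highest mean signal over both arrays, and its other probe sets are given beside it.

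Lysosomal hydrolases are made as precursors in the endoplasmic reticulum and are mostly tagged with mannose 6-phosphate in the Golgi apparatus. Sorting receptors carry them for part of the way to the acidic lysosome. They work in sequence, so that loss of a single enzyme leaves its substrate undigested in a storage disease, and many of these diseases damage the brain. Microglia, the resident phagocytes of the brain, take up myelin debris and dying cells and depend on lysosomes to digest them. TFEB, a transcription factor of the MiT/TFE family, binds an E-box in the promoters of many lysosomal genes.

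Mononuclear cells were prepared from enzymatically dissociated whole brain on a Percoll density gradient, a preparation in which microglia are enriched but not pure. RNA from 7 wild-type (WT) mice aged 10 to 15 weeks formed a pool, and RNA from 6 CD47 null mice (CD47 KO) aged 12 to 16 weeks formed the other. The labels give no treatment and no transgene for either group. Each pool was amplified from 20 ng of RNA and read on 1 Affymetrix Mouse Genome array, so there are no replicates, no p-values and no error between animals for any value below, and the number of arrays limits the precision. CD47 is the ligand of SIRPα, an inhibitory receptor of phagocytes, and the comparison asks what its loss does to gene expression in these cells.

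The signal of *Cd47* itself was 5816 in WT and 1688 in CD47 KO cells, and its 5 expressed probe sets had Log2 ratios (KO/WT) between -1.86 and -1.45. Both pools are labelled male, yet *Xist*, the RNA of the inactive X chromosome, had a signal of 7070 in WT and 6530 in CD47 KO cells. The Y-linked *Eif2s3y* had 189 and 461. The part of the animals' sex in the values below was not tested. The arrays had median signals of 161 (WT) and 146 (CD47 KO), and the 9 hybridization controls had Log2 ratios from -0.01 to 0.15.

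The promoters of the lysosomal genes were searched for the E-box CACGTG and for 2 longer forms of the CLEAR element, GTCACGTG and TCACGTGA, on both strands. Both longer forms contain the E-box, so their matches overlap with those of the E-box. RefSeq (GRCm38.p6) gave a promoter, from 250 bases before to 50 after the gene start, for 39 of the 44 genes. The E-box was found in 9 of these 39 (23.1%), against 7.15% of all 32851 promoters and 8.09% of 27025 genes. GTCACGTG was found in 8 of the 39 (20.5%), against 2.25% of promoters and 2.55% of genes. TCACGTGA was found in 3 (7.69%), against 0.974% of promoters and 1.12% of genes. A match is a string of letters and was not tested as a binding site.

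*Gla*, *Mcoln1* and *Cln3* held both longer forms and are shown whole, because they let the reader see the element that TFEB is known to bind in genes of 3 different classes. Capitals mark the E-box and, where the match is longer, the whole CLEAR form. The *Gla* promoter (chrX:134600956-134601255, minus strand) has E-boxes 227 and 194 bases before the gene start. The *Mcoln1* promoter (chr8:3500269-3500568, plus strand) has them 71 and 45 bases before it, and the *Cln3* promoter (chr7:126583187-126583486, minus strand) 149 and 121 bases before it.
Gla: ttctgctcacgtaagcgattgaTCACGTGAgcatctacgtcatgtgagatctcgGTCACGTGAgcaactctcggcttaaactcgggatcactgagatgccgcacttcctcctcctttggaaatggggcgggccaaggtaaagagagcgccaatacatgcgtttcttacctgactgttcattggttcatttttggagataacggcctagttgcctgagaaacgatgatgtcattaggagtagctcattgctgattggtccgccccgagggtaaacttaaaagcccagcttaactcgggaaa
Mcoln1: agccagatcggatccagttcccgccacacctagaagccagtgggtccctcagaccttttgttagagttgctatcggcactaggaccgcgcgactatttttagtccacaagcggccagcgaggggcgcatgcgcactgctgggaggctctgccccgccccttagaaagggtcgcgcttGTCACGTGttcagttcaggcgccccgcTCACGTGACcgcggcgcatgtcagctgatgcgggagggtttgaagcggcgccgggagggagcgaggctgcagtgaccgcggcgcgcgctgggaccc
Cln3: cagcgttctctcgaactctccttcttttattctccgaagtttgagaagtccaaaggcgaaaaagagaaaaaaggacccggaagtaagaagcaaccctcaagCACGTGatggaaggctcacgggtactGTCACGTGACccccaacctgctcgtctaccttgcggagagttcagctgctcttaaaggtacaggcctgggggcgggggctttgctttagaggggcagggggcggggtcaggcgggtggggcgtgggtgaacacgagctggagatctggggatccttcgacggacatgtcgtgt

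The other 6 matching promoters are shown only around their E-boxes, with 10 bases on each side, to compare the flanks. This choice was made after the matches were seen. *Lamp1* (chr8:13159090-13159161, plus strand) held 4 E-boxes within 72 bases, the farthest 61 bases before the gene start. The stretches of *Gaa* (chr11:119267813-119267838, plus), *Naglu* (chr11:101070011-101070036, plus), *Glb1* (chr9:114401020-114401045, plus), *Arsa* (chr15:89477425-89477450, minus) and *Sgsh* (chr11:119355524-119355549, minus) held 1 each.
Lamp1: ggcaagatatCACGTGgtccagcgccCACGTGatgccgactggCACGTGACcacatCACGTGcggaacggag
Gaa: tctgtgcgatCACGTGtttgactctg
Naglu: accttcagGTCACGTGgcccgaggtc
Glb1: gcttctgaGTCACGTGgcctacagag
Arsa: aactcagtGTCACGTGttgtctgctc
Sgsh: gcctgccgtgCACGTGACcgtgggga

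Among these stretches *Gaa* alone lacked the flanking letters of GTCACGTG. Genes holding the E-box or either longer form had no higher median Log2 ratio than those without. Few genes held them, and each genotype has 1 array, so no conclusion is drawn from these medians. The 8 expressed genes with an E-box had a median Log2 ratio of 0.10, and the 30 without had 0.15. With GTCACGTG the median over 7 genes was 0.06, and without it the median over 31 genes was 0.15. With TCACGTGA the median over 3 genes was -0.00, the value of *Gla*, and without it the median over 35 genes was 0.15. The promoters of *Galns*, *Asah1*, *Npc1*, *M6pr* and *Sort1* were not analysed here.

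Most of the lysosomal genes had a slightly higher signal in CD47 KO cells, and no gene among them passed a 2-fold difference in either direction on its brightest probe set. A gene was taken as expressed if, on at least 1 of the arrays, its signal was at or above that array's median, and 43 of the 44 were. Of these, 36 were higher in CD47 KO cells and 7 were lower, with a median Log2 ratio of 0.15 and a range from -0.28 (*Cln3*) to 0.97 (*Gaa*). Thus 83.7% were higher, against 50.3% of all 11682 expressed genes, whose median was 0.00. With the median required on both arrays, which leaves out *Tfeb* and *Galns*, 35 of 41 were higher. The share of all expressed genes under that rule is not given here. The hybridization controls, added to both arrays at the same amounts, reached 0.15 at their highest. Because the preparation was measured as a whole, fewer cells of a type and less RNA per cell cannot be told apart.

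A Log2 ratio above 0.32, which is a signal more than 25% higher in CD47 KO cells, was seen for 12 genes, or 27.9%, against 21.0% of all expressed genes. They were *Gaa*, *Naglu*, *Neu1*, *Manba*, *Man2b1*, *Arsa*, *Psap*, *Npc1*, *Acp2*, *Cd68*, *Ctns* and *Tfeb*. *Tfeb* counted as expressed through the CD47 KO array alone, and 11 genes had such a ratio with the median required on both arrays. No lysosomal gene had a ratio below -0.32, against 24.6% of all expressed genes. For a 2-fold difference the shares of all expressed genes were 3.53% higher and 5.41% lower.

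**Figure D1:**
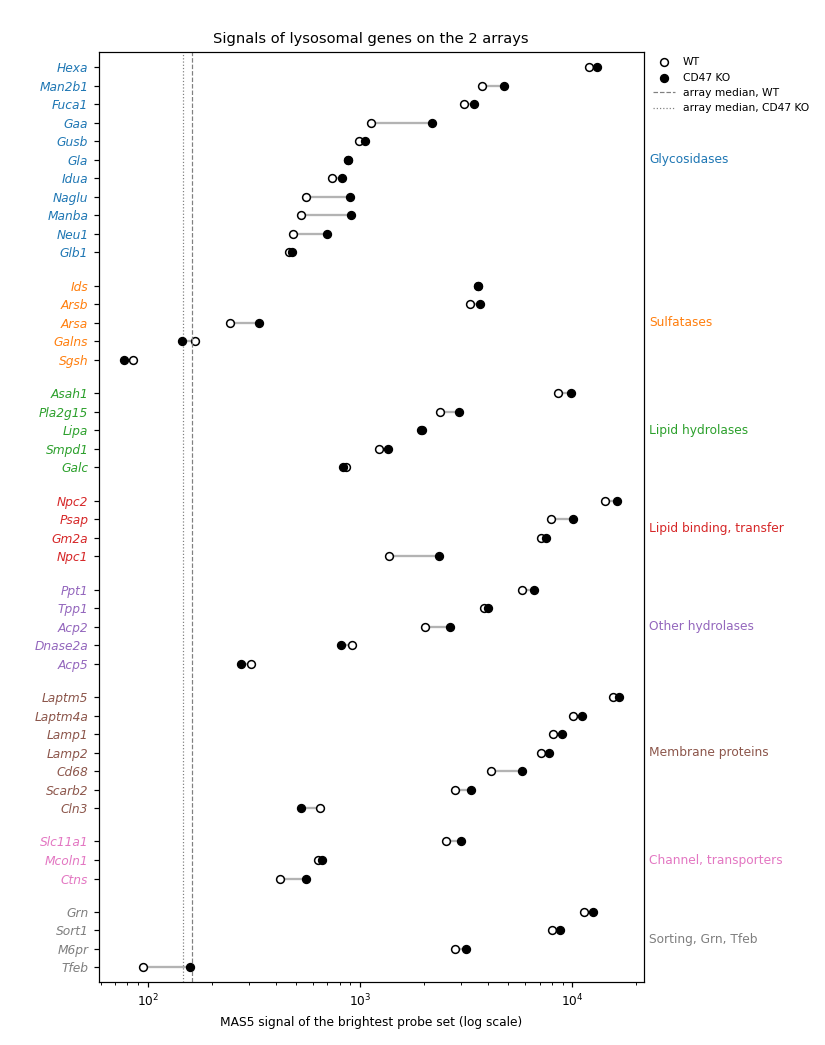
MAS5 signal of the brightest probe set of each of the 44 lysosomal genes on the WT array (open circles) and the CD47 KO array (filled circles), on a log axis, by class; the vertical lines are the array medians, 161 in WT and 146 in CD47 KO. Most filled circles lie slightly to the right of the open ones, with wide gaps for *Gaa*, *Naglu*, *Manba*, *Npc1* and *Tfeb*, and *Sgsh* lies below both medians.

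Ratios on these arrays varied with signal, and most lysosomal probe sets were bright. Of the 43, 26 lay among the brightest 25% of expressed genes, where 60.4% of all 2921 genes had a higher signal in CD47 KO cells, with a median Log2 ratio of 0.05. Among these bright genes 25 of the 26 lysosomal genes were higher, with a median of 0.16, and the exception was *Ids*. There 6 of the 26 (23.1%) had a ratio above 0.32, against 10.6% of all genes of that brightness, and none had a ratio below -0.32, against 8.35%. In the dimmer groups of 25%, taken in falling order of signal, 6 of 9, 3 of 4 and 2 of 4 lysosomal genes were higher. Of all genes in these groups 49.7%, 46.1% and 45.1% were higher.

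**Figure D2:**
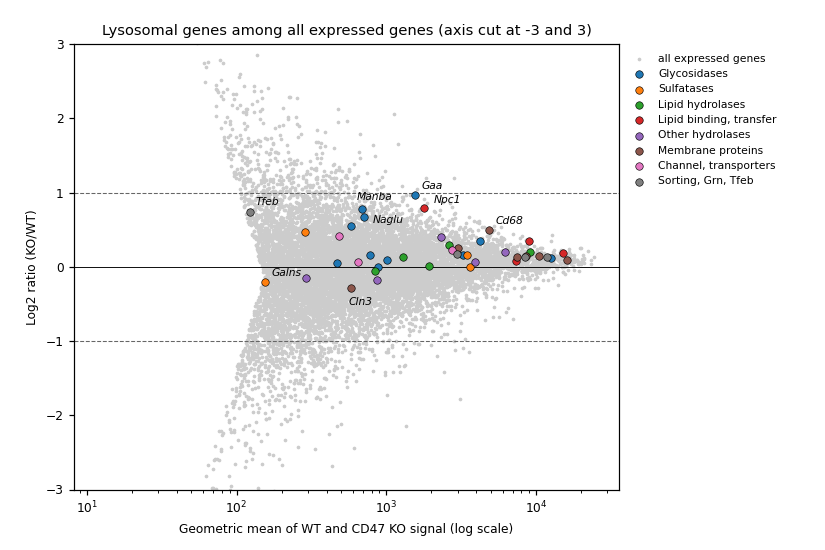
Log2 ratio (KO/WT) against the geometric mean of both signals (log axis) for all 11682 expressed genes (grey) and the 43 expressed lysosomal genes (coloured by class), with dashed lines at a 2-fold difference. The coloured points lie mostly just above 0 at the bright end, and *Gaa*, at 0.97, comes closest to the upper dashed line.

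Without replicates, the only internal measure of spread is how far the brightest probe set of a gene lies from its second brightest. Splice forms and probe effects also add to this distance. Both probe sets were read from the same pools on the same arrays. Error that they share, such as that between animals or pools, therefore does not show in it. Over 5499 genes with a second expressed probe set, the SD of the difference between them was 0.70, and the pair had the same sign in 57.9%. The SD fell with signal, from 1.05 in the 25% of these genes whose second probe set was dimmest through 0.70 and 0.54 to 0.30 in the 25% where it was brightest. Each lysosomal gene was set against the SD at the signal of its own brightest probe set, and 8 were higher by more than 1 SD, namely *Gaa*, *Naglu*, *Manba*, *Man2b1*, *Psap*, *Npc1*, *Acp2* and *Cd68*. *Neu1*, at 0.54, was level with its SD and was not counted. No gene was lower by more than 1 SD. Among all expressed genes 11.7% were higher and 13.3% lower by that much. Set against the SD at the signal of its second probe set, where a gene has one, 7 were higher and none lower, against 9.44% of all expressed genes higher, and *Man2b1* was no longer counted.

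Of the 25 lysosomal genes with at least 2 expressed probe sets, 16 were higher on every one, 9 had probe sets on both sides of 0, and none was lower on all. The dimmer probe sets of *Man2b1*, among the 16, and of *Cln3*, among the 9, counted as expressed through the CD47 KO array alone. Of all 5499 genes with several expressed probe sets, 23.2% were higher on all and 21.2% lower on all. For these 25 the SD of the difference between the pair was 0.35, and 18 (72.0%) had the same sign on both. In all, 68 of the 82 expressed probe sets were higher and 14 were lower, while 50.7% of all 21167 expressed probe sets with 1 symbol were higher.

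**Figure D3:**
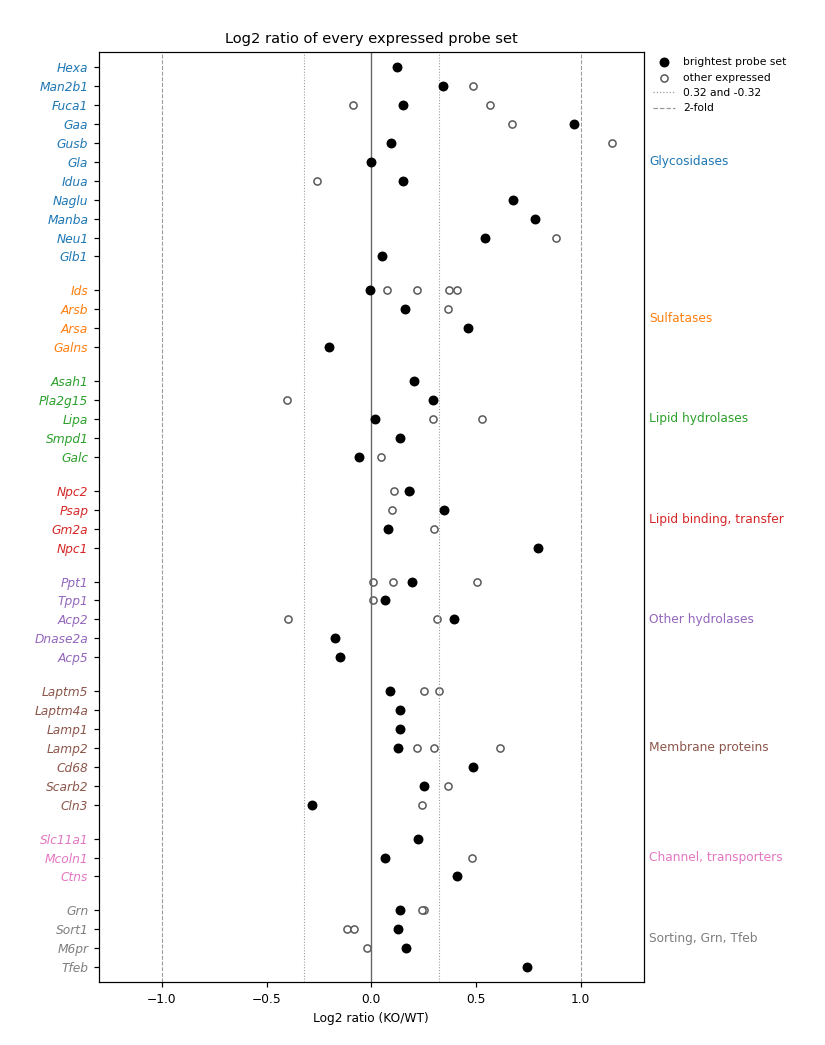
Log2 ratio (KO/WT) of every expressed probe set of the 43 expressed lysosomal genes, with the brightest probe set filled and the others open; dotted lines mark ratios of 0.32 and -0.32 and dashed lines 2-fold. Probe sets of a gene often lie apart, as for *Gusb* (0.09 and 1.15) and *Pla2g15* (0.29 and -0.40), while those of *Npc2* lie between 0.11 and 0.19.

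The glycosidases, which cut sugars from the ends of glycans, included the largest difference of all 43 genes. All 11 were expressed, 10 were higher and 1 was lower, with a median Log2 ratio of 0.15, and 5 were above 0.32. That median was 0.41 with the mean over the expressed probe sets of each gene, and 0.25 over the genes that reached the 75th percentile of an array. *Gaa*, acid α-glucosidase, which degrades glycogen and is lost in Pompe disease, gave 1122 in WT and 2193 in CD47 KO cells (0.97, or 1.96-fold). Its other probe set, which may also read related transcripts, gave 0.67. The ratio of *Gaa* was above that of 96.1% of expressed genes.

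Several glycosidases trim the side chains of glycoproteins. *Manba*, β-mannosidase, had 529 in WT and 908 in CD47 KO cells (0.78). *Man2b1*, the lysosomal α-mannosidase, had 3750 and 4747 (0.34). Its other probe set had 116 and 162 (0.49), and counted as expressed through the CD47 KO array alone. *Neu1*, the sialidase that removes terminal sialic acids, had 481 and 701 (0.54; other probe set 0.88). The α-fucosidase *Fuca1* had 3102 and 3452 (0.15), and its other probe sets gave 0.57 and -0.09.

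*Naglu*, an N-acetylglucosaminidase of heparan sulfate breakdown, had a signal of 558 in WT and 892 in CD47 KO cells (0.68), on its only probe set. *Idua*, the iduronidase of the same pathway, had 737 and 819 (0.15), but its other probe set gave -0.26. For *Gusb*, β-glucuronidase, the probe sets of nearly equal brightness differed most of any lysosomal gene. The brighter one had 987 and 1052 (0.09), and the other had 612 and 1358 (1.15), so the size of the *Gusb* difference is not settled by these arrays.

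The glycosidases that also act on gangliosides and related lipids differed little. *Hexa*, the α subunit of β-hexosaminidase, had 12029 in WT and 13087 in CD47 KO cells (0.12). *Glb1*, β-galactosidase, had 460 and 477 (0.05). *Gla*, the α-galactosidase lost in Fabry disease, had 878 and 877, the only glycosidase without a higher signal in CD47 KO cells.

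The sulfatases, which remove sulfate groups from glycosaminoglycans and sulfatide, split evenly. Of 5, 4 were expressed, with 2 higher, 2 lower and a median of 0.08. Over all 5, with no signal threshold, the median was -0.0070, and with the mean over probe sets it was 0.24. *Arsa*, which degrades the myelin lipid sulfatide and is lost in metachromatic leukodystrophy, had 243 in WT and 335 in CD47 KO cells (0.46). Its ratio was smaller than the SD of 0.70 between probe sets of like brightness.

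*Arsb*, which acts on dermatan sulfate, had 3285 and 3671 (0.16; other probe set 0.37). *Ids*, iduronate sulfatase, had 3611 and 3594 (-0.01) on its brightest probe set, but its other 4 gave 0.08 to 0.41, all higher. *Galns*, which acts on keratan sulfate, had 167 and 145 (-0.20), and reached the median only on the WT array. *Sgsh*, heparan N-sulfatase, had 84.8 and 77.0 and was not expressed by the criterion used.

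The hydrolases of lipids differed by at most 0.29 on the log2 scale, with 4 of 5 higher and a median of 0.14. *Asah1*, acid ceramidase, had 8546 in WT and 9850 in CD47 KO cells (0.20). *Smpd1*, acid sphingomyelinase, had 1229 and 1351 (0.14). *Galc*, the galactosylceramidase that degrades a major myelin lipid, had 863 and 830 (-0.06; other probe set 0.05).

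*Lipa*, acid lipase, which frees cholesterol from its esters, had 1935 and 1956 (0.02), while its dimmer probe sets gave 0.29 and 0.53. *Pla2g15*, a lysosomal phospholipase, had 2388 and 2926 (0.29), while its dimmer probe set had 429 and 324 (-0.40). The probe sets of *Lipa* shared a direction but not a size, and those of *Pla2g15* shared neither.

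Lipid-binding and lipid-transfer proteins were higher in all 4 cases, with a median of 0.26. *Npc1*, the membrane protein that exports cholesterol from the lysosome, had 1362 in WT and 2364 in CD47 KO cells (0.80, 1.74-fold), on its only probe set. *Npc2*, the soluble protein that hands cholesterol to NPC1, differed less, with 14291 and 16217 (0.18; others 0.11 and 0.19). *Psap*, the precursor of the saposins that present sphingolipids to their enzymes, had 7929 and 10083 (0.35), and its other probe set gave 0.10. *Gm2a*, the activator that presents ganglioside to β-hexosaminidase, had 7107 and 7511 (0.08; other 0.30).

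The remaining hydrolases were 3 higher and 2 lower, with a median of 0.07. *Tpp1*, a tripeptidyl peptidase, had 3823 and 4005 (0.07; other probe set 0.01). *Ppt1*, a thioesterase that removes palmitate from proteins, had 5776 and 6616 (0.20), with 0.01 to 0.50 on its other probe sets. Both are enzymes lost in neuronal ceroid lipofuscinosis. *Acp2*, lysosomal acid phosphatase, had 2020 and 2657 (0.40), but its other probe sets gave 0.31 and -0.40. *Acp5*, the tartrate-resistant acid phosphatase, had 306 and 276 (-0.15). *Dnase2a*, which digests DNA of engulfed cells, had 918 and 814 (-0.17), on a probe set that may also read related transcripts.

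Among the membrane proteins 6 of 7 were higher, with a median of 0.14, and *Cd68* had the largest difference on the brightest probe sets. *Cd68*, a glycoprotein of phagocyte lysosomes and a marker of phagocytic activity, had 4126 in WT and 5788 in CD47 KO cells (0.49, 1.40-fold), on its only probe set. *Lamp1*, an abundant membrane glycoprotein, had 8147 and 8972 (0.14). *Lamp2*, its relative with a part in autophagy, had 7122 and 7770 (0.13), and its 3 other probe sets were also higher, at 0.22 to 0.61.

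*Scarb2*, which carries glucocerebrosidase to the lysosome, had 2787 and 3315 (0.25; other 0.37). The multi-span proteins *Laptm4a* and *Laptm5*, the latter a protein of haematopoietic cells and microglia, differed by 0.14 and 0.09. *Laptm4a* had 10063 and 11084, and *Laptm5* had 15539 and 16536. The dimmer probe sets of *Laptm5* gave 0.33 and 0.25. *Cln3*, a membrane protein lost in juvenile neuronal ceroid lipofuscinosis, was the lowest of all 43, with 644 and 529 (-0.28), but its dimmer probe set gave 0.24. That probe set had 153 and 181, and counted as expressed through the CD47 KO array alone.

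The channel and transporters were all higher, with a median of 0.23. *Mcoln1*, the cation channel that releases calcium from the lysosome, had 633 and 662 (0.06), and its other probe set, nearly as bright, gave 0.48. *Ctns*, the cystine exporter, had 420 and 559 (0.41), within the SD of 0.54 for genes of its brightness. *Slc11a1*, which exports metal ions from the phagosomes of macrophages, had 2548 and 2979 (0.23).

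Of the genes that supply the lysosome, *M6pr*, a mannose 6-phosphate receptor, had 2793 and 3138 (0.17; other -0.02). *Sort1*, sortilin, had 8038 and 8786 (0.13), and its other probe sets gave -0.11 and -0.08. *Grn*, progranulin, the precursor of the lysosomal granulins, had 11351 and 12467 (0.14; others 0.25 and 0.24). *Tfeb* had 94.8 in WT and 159 in CD47 KO cells (0.74). Its signal was below the array median in WT, so it counted as expressed through the CD47 KO array alone, and the SD between probe sets of that brightness was 1.05.

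Hydrolases and the other lysosomal proteins had the same median. The 25 expressed hydrolases were 19 higher and 6 lower, with a median of 0.15, and the 18 other genes were 17 higher and 1 lower, also with 0.15.

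Other genes of the lysosome ranged from -2.11 to 1.91. Of 91 listed, 83 had a named probe set and 75 were expressed, with 51 higher, 24 lower and a median of 0.10. In these lists 17 genes (22.7%) had a ratio above 0.32 and 10 (13.3%) had a ratio below -0.32. *Clcn7*, a chloride-proton exchanger of the lysosomal membrane, passed 2-fold, with 106 in WT and 399 in CD47 KO cells (1.91), from a WT signal below the array median. Its second expressed probe set had 133 and 289 (1.12), so both counted as expressed through the CD47 KO array alone. *Gga2*, an adaptor for mannose 6-phosphate receptors at the Golgi apparatus, had 1031 and 239 (-2.11) on its only probe set.

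Within these lists, other hydrolases and related enzymes had a median of 0.17 over 14 genes, with 10 higher and 4 lower. The list holds *Sumf1* and *Hgsnat*, which are not hydrolases, each at 0.17. *Plbd2*, a phospholipase B-like protein, had 322 and 513 (0.67), and *Man2b2*, another mannosidase, had 493 and 665 (0.43). *Ppt2*, a thioesterase related to *Ppt1*, was lower, with 303 and 209 (-0.54). Other membrane proteins and transporters had 0.12 over 17 genes, with 14 higher and 3 lower. There *Glmp*, a lysosomal membrane glycoprotein, had 892 and 1509 (0.76). *Slc38a9*, an arginine sensor upstream of mTORC1, had 493 and 827 (0.75), with 2 of its 4 other expressed probe sets higher and 2 lower. *Slc15a3*, a peptide transporter, had 404 and 588 (0.54). The 3 lower genes were *Slc17a5*, the sialic acid exporter, with 254 and 145 (-0.81), *Tmem192*, with 1105 and 866 (-0.35), and *Tpcn1*, a cation channel, with 1601 and 1445 (-0.15). *Slc17a5* reached the median only on the WT array, and the second expressed probe sets of *Tmem192* and *Tpcn1* gave 0.07 and 0.05.

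The V-ATPase, the proton pump that acidifies the lysosome, showed little difference as a whole, with a median of 0.06 over 16 subunits, 10 higher and 6 lower, and a median of -0.0059 after quantile normalization. Its largest difference was in *Atp6v1g2*, a subunit form of neurons, with 6373 and 4361 (-0.55). *Atp6v0a2* had 469 and 643 (0.45). *Atp6v1b2* had 3235 and 2703 (-0.26), but its other probe sets ranged from -1.13 to 0.27.

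Genes of mannose 6-phosphate tagging and sorting had a median of 0.17 over 14 genes and split into 8 higher and 6 lower. Besides *Gga2*, *Igf2r*, the large mannose 6-phosphate receptor, had 469 and 282 (-0.73), though its other probe set gave 0.54. *Ap3d1*, an adaptor subunit of lysosomal sorting, had 697 and 1153 (0.73). The MiT/TFE factors and their regulators had a median of 0.04 over 14 genes, with 9 higher and 5 lower, and of -0.0081 after loess normalization. The nutrient-sensing genes *Fnip1* (983 and 1325, 0.43) and *Rragd* (1763 and 2219, 0.33) were higher, and *Rraga* (2561 and 2024, -0.34) was lower.

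**Figure D4:**
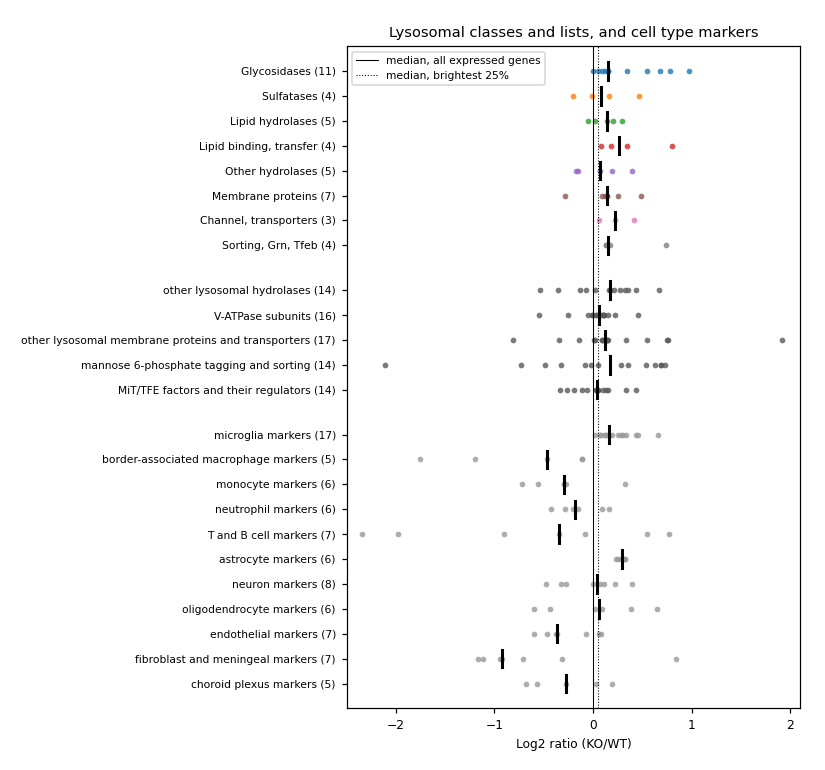
Log2 ratio (KO/WT) of each expressed gene (points) and the median (bars) for the 8 classes of lysosomal genes, the 5 lists of other lysosomal genes and 11 lists of cell type markers, with the number of expressed genes in parentheses; the vertical lines are the medians of all expressed genes and of the brightest 25%. The class medians lie between 0.07 and 0.26, near that of the microglia markers at 0.16, while fibroblast and meningeal markers lie at -0.93.

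Markers of the cells in the preparation differed alongside the lysosomal genes. All 17 microglia markers were expressed and higher in CD47 KO cells, with a median of 0.16, a range from 0.02 to 0.66 and a summed signal of 150681 in WT and 172249 in CD47 KO cells. *C1qb*, a complement subunit and the brightest of them, had 19785 and 20909 (0.08). On the brightest probe sets the median of the lysosomal genes, 0.15, was close to that of the microglia markers, and their part in it was not tested. With the mean over the expressed probe sets of each gene the lysosomal median was 0.21. The marker median with that mean is not given here, so the closeness holds for the brightest probe sets only. Taken relative to the microglia median, 20 of the 43 were higher and 23 lower. *Arsb*, just above that median, had a ratio above that of 66.5% of all expressed genes, so most of those genes also lay below the microglia median. Of the 43 lysosomal genes 30 lay within the range of the microglia markers, 8 lay below it, and 5 lay above it, namely *Gaa*, *Npc1*, *Manba*, *Tfeb* and *Naglu*. Of these, *Tfeb* counted as expressed through the CD47 KO array alone, and its ratio was smaller than the SD of 1.05 between probe sets of like brightness. The upper end of that range was set by *Cx3cr1* alone, at 0.66, and the next marker, *Trem2*, had 0.45. *Neu1*, *Cd68* and *Arsa* lay between *Trem2* and *Cx3cr1*.

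Other cell types differed in both directions. Astrocyte markers were higher for all 6 expressed of 8, with a median of 0.30 and a summed signal of 23266 and 28370. Their brightest, the glutamate transporter *Slc1a2*, had 8851 and 10762. Markers of border-associated macrophages were lower for all 5 expressed of 7, with a median of -0.47 and sums of 4133 and 2915, and their brightest, *Stab1*, had 1131 and 1046. Fibroblast and meningeal markers had a median of -0.93, with 6 of 7 lower and sums of 4664 and 2951, and their brightest, the collagen *Col1a2*, had 1519 and 702. Monocyte markers had -0.29 (5 of 6 lower, 23178 and 19041), endothelial markers -0.37 (5 of 7 lower, 7801 and 6774), and T and B cell markers -0.34 (5 of 7 lower, 5146 and 4774). The brightest of these lists were *Chil3* with 11461 and 9364, *Slco1a4* with 2358 and 2495, and *Cd3d* with 935 and 1363. Neutrophil markers had -0.18 with sums of 68336 and 68456, choroid plexus markers -0.27 with 28791 and 28063, neuron markers 0.04 and oligodendrocyte markers 0.06. Their brightest genes were *S100a9* with 22757 and 24191, *Ttr* with 23088 and 23613, *Snap25* with 17563 and 17607, and *Cnp* with 6718 and 7170. No marker with a named probe set was listed at 0, and the part of these cells in the lysosomal values was not tested.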

How the data were processed

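Signal intensity was measured on 1 Affymetrix Mouse Genome array per pool of RNA, 1 pool for each genotype. The deposited values are linear intensities made by the authors with Expression Console Software, and MAS5 is named in the submitters' processing notes. The mean after removal of 2% of values at each end was 500.002 on both arrays. Probe sets were named from the platform annotation, which gives 1 symbol to 34945 of 45101 probe sets, several to 932 and none to 9160 (64 controls left out), and 34741 of those with 1 symbol match the RefSeq table of GRCm38.p6. Only probe sets with 1 symbol were used.

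Log2 ratios (KO/WT) were taken from the deposited intensities with no offset. The brightest 25% were taken by mean signal over expressed genes. Probe sets differ in how strongly they bind, so signals give no order of levels between genes. The genes and lists were chosen with earlier results of these data known. All lysosomal genes with a named probe set are given, with the 3 largest absolute ratios of each other lysosomal list among genes reaching the median of both arrays, *Cd47* and the brightest gene of each marker list. *Clcn7*, *Slc17a5*, *Tmem192*, *Tpcn1*, *Xist* and *Eif2s3y* fall outside this rule and were added with their values known. *Dnase2a* is read only by a probe set whose name marks possible cross-hybridisation. All expressed probe sets of *Laptm5*, and the brightest of *Grn*, *Lamp2* and *Sort1*, are marked in the same way. So are some dimmer probe sets, that of *Gaa* among them. Without such probe sets *Sort1* was at -0.11.

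With 1 array per genotype no test was run. Each value was recomputed under 10 alternatives of signal threshold, normalization, offset and probe set, and 1 more was added after seeing the data. The calculation was checked on simulated arrays with planted differences larger than any of the lysosomal genes on their brightest probe sets. Recovery of differences as small as those reported here was not checked. Python 3.11.15, pandas 2.3.3, numpy 2.4.6, statsmodels 0.14.6 (loess, fraction 0.4) and matplotlib 3.10.9 were used. Promoters are those of RefSeq, and protein sequences were not analysed here.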

Additional observations from a re-analysis of the deposited data

How the results depend on the processing

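The median Log2 ratio of the lysosomal genes stayed between 0.11 (quantile normalization and loess) and 0.17 (without probe sets marked for possible cross-hybridisation) under 9 of 10 alternatives, and was 0.21 with the mean over the probe sets of a gene. With that mean the glycosidases had a median of 0.41 and the sulfatases 0.24, and *Gusb* was at 0.62 and *Pla2g15* at -0.06. With the 75th percentile as signal threshold the glycosidases were at 0.25. Genes of mannose 6-phosphate tagging and sorting were at 0.047 with that threshold, with the median required on both arrays, and without probe sets marked for possible cross-hybridisation. With no signal threshold the sulfatases were at -0.0070, and with the median required on both arrays at 0.16. After quantile normalization and loess, the V-ATPase was at -0.0059 and -0.0097, MiT/TFE genes at 0.0025 and -0.0081, membrane proteins at 0.079 and 0.061, other hydrolases of the main set at 0.014 and 0.015, and sorting receptors with *Grn* and *Tfeb* at 0.092 and 0.090. Loess put 1 gene past 2-fold, *Tfeb* at 1.04. The cause of these shifts was not tested.

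Relative to the median of the microglia markers, a comparison added after seeing the data, the lysosomal median was -0.0086, with 20 genes higher, 7 above 0.32 and 3 below -0.32. For this setting the shares of all expressed genes above 0.32 and below -0.32 are not given here. Classes were then at -0.0062 (glycosidases), -0.083 (sulfatases), -0.023 (lipid hydrolases), 0.10 (lipid binding and transfer), -0.093 (other hydrolases), -0.021 (membrane proteins), 0.065 (channel and transporters) and -0.0085 (sorting receptors, *Grn* and *Tfeb*). The other lists were at 0.010 (hydrolases and related enzymes), -0.10 (V-ATPase), -0.043 (membrane proteins and transporters), 0.0070 (tagging and sorting) and -0.12 (MiT/TFE). The shift is by construction, since this setting subtracts the marker median from every gene and moves the median of all expressed genes to -0.16.

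No paired analysis was possible because each genotype has 1 array, and for the same reason no setting leaves out a sample. Signals near the array medians, those of *Tfeb*, *Galns* and *Arsa* among them, are limited by their SD between probe sets.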
